A study of Homo sapiens with 32 samples.

Results

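IL6 encodes interleukin 6, a secreted cytokine, and its transcript was followed here by 1 probe of 20589 on 32 Illumina bead arrays, each read in 1 colour, of RNA from PC-3 cells. PC-3 is an established human prostate adenocarcinoma line, grown as a monolayer. The gene was chosen on its measured values in these arrays, namely its vehicle course, its treated course and the gap between them, so its levels are given as a description with no test. The probe is the only member, and it was kept among the 10598 genes tested after a filter on dim probes. All groups were PC-3 cells in flasks of serum-containing medium. In one experiment they received 4-hydroperoxycyclophosphamide at 5.5 µM, which the labels call active (2 arrays for 10 h, 2 for 24 h, 3 for 48 h), or vehicle (3 arrays per time). In the other they received cyclophosphamide, which the labels call inactive (3 arrays for 10 h, 3 for 24 h, 2 for 48 h), or vehicle (3, 3 and 2 arrays). Cyclophosphamide is a prodrug that liver enzymes activate, and the hydroperoxy form gives the active metabolite in medium without them. The sources differ on whether 5.5 µM also applies to cyclophosphamide, so values of the compounds are given side by side and not tested against each other. Whether the arrays of 1 group stem from separate cultures is not in the labels, so p-values speak only to the spread among these arrays, and that spread may be technical.

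Interleukin 6 binds its receptor IL6R, and the pair engages the shared receptor chain gp130, encoded by IL6ST. Kinases of the JAK family on gp130 then activate the transcription factor STAT3, and SOCS3 shuts the signal off. IL6 transcription is known to be driven by NF-kB, C/EBP beta, CREB or ATF family factors and AP-1, often after interleukin 1 or TNF. Its mRNA is short-lived and is degraded with the help of proteins such as ZC3H12A (Regnase-1) and ZFP36 (tristetraprolin). PC-3 cells are known to secrete interleukin 6 and to lack STAT3.

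In RefSeq, IL6 lies on the + strand of chromosome 7 at chr7:22727200-22731998 (GRCh38.p14). The 250 bases before its start site, chr7:22726950-22727199, are shown because they hold sites through which some of the factors described later are known to act. Capitals mark, 5′ to 3′, matches to GACGTCA (the core of a cyclic AMP response element, CRE), TTGCNNAA (C/EBP) and GGG, any 2 bases and TTTCC (NF-kB), each searched on both strands.
IL6 promoter: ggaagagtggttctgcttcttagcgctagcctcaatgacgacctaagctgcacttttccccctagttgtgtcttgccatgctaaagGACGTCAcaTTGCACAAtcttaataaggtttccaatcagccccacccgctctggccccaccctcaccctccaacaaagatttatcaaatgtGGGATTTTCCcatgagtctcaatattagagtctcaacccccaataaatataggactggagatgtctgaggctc
The CRE core begins 164 bases before the start site, the C/EBP match 155 bases before it and the NF-kB match 73 bases before it, and none overlaps another. The AP-1 motif TGANTCA had no match in this window. Of 27305 promoters of the same length, 1.73% held the NF-kB motif, 9.13% the C/EBP motif, 3.29% the CRE core and 6.6% the AP-1 motif. The motifs were picked for IL6, and 2 promoters, those of IL6 and of the chemokine gene CXCL2, held the first 3 together (0.00732%). A match describes letters and does not show that a factor binds.

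Some arrays stood apart and are named first. The position of each array between 10 h and 24 h was read from all genes tested other than IL6. In the cyclophosphamide experiment 4 of 12 arrays lay on the side of the other time, namely treated and vehicle replicate 3 at 10 h and at 24 h. In the 4-hydroperoxycyclophosphamide experiment 1 of 10 did, vehicle replicate 3 at 10 h. The 75th percentile of raw intensity was 430.9 to 655.5 over the arrays of the 4-hydroperoxycyclophosphamide experiment and 274.6 to 416.2 over those of the cyclophosphamide experiment. The median residual SD of genes was 0.112 and 0.191 log2 units in these experiments, so each was fitted with limma on its own 16 arrays. Levels below are log2 normalized intensities. Of 7 epithelial markers, keratin and EPCAM transcripts among them, 5 passed the filter, and the whole list had a median percentile of 92.1. The rest did not pass, and the lowest percentile of the list was 8.91. KLK3, the prostate-specific antigen of androgen-responsive cells, was at percentile 14.3, within the dim part of the array. KLK3 is 1 of 6 androgen-response markers listed, and 3 of them were on the array. Of these 1, TMPRSS2, passed the filter, and the highest percentile of the list was 62.6.

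In the 4-hydroperoxycyclophosphamide experiment, IL6 stood slightly above vehicle at 10 h, far above it at 24 h, and still well above it at 48 h, while the vehicle level was lower at each later time. At 10 h IL6 was 11.24 and 11.38 in treated arrays, against 11.14, 11.16 and 11.10 in vehicle arrays. At 24 h it was 13.27 and 12.99 in treated arrays, against 9.96, 10.10 and 10.07 in vehicle arrays. At 48 h it was 11.98, 11.60 and 11.90 in treated arrays, against 9.27, 9.46 and 9.43 in vehicle arrays. Treated and vehicle arrays did not overlap at any of these times, although at 10 h the lowest treated array was only 0.08 above the highest vehicle array. In raw intensity, before any scaling, the arms overlapped at 10 h, with 3811.8 and 4473 in treated arrays, against 3940.8, 3206.1 and 2761.8 in vehicle arrays. The 24 h arrays read 14170 and 9639.6 under treatment, against 1540.3, 1300.3 and 1157.3 under vehicle, and the 48 h arrays 5530.5, 4185.3 and 4654.4, against 851.6, 970.9 and 786.5, without overlap at either time. The probe was bright throughout this experiment, with 81.9% to 99.5% of probes below it on the same array.

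**Figure D1:**
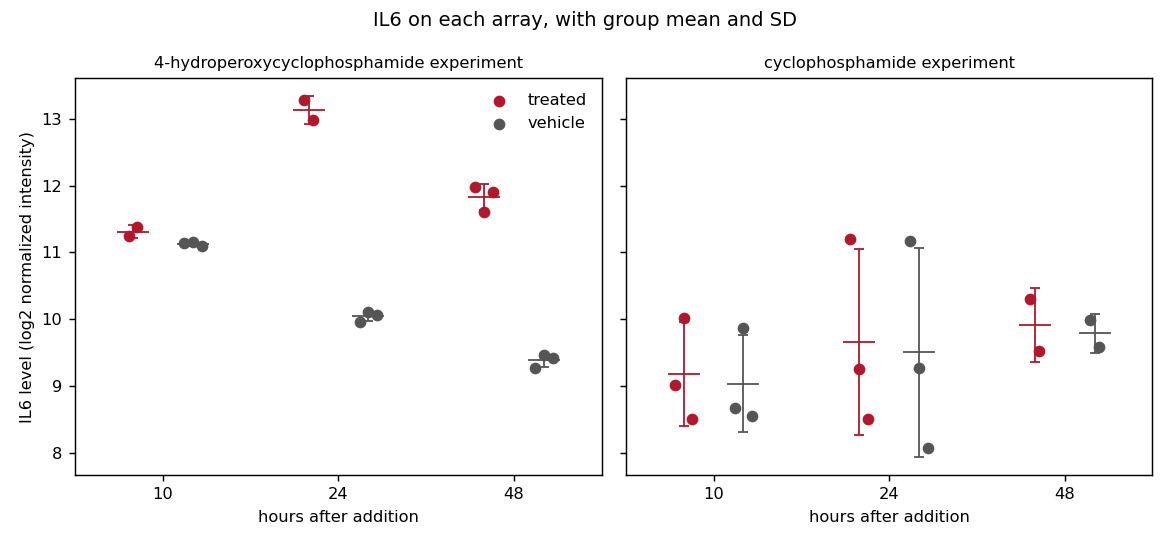
IL6 level (log2 normalized intensity) on every array against hours after addition, treated left of vehicle, with the group mean and SD. With 4-hydroperoxycyclophosphamide the treated means were 11.31, 13.13 and 11.83 at 10, 24 and 48 h and the vehicle means 11.13, 10.04 and 9.39, while in the cyclophosphamide experiment treated and vehicle arrays overlapped at every time.

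The treated mean at 10 h was 11.31 ± 0.10 (SD, n = 2) and the vehicle mean 11.13 ± 0.03 (SD, n = 3), a gap of 0.18 (SE 0.11). At 24 h the treated mean was 13.13 ± 0.20 (SD, n = 2) and the vehicle mean 10.04 ± 0.07 (SD, n = 3), a gap of 3.09 (SE 0.11), or 8.49-fold. At 48 h the treated mean was 11.83 ± 0.20 (SD, n = 3) and the vehicle mean 9.39 ± 0.10 (SD, n = 3), a gap of 2.44 (SE 0.10), or 5.43-fold. Among the 10598 genes IL6 had the highest gap at 24 h and at 48 h and rank 1390 at 10 h. The gap at 10 h was 0.25 without treated replicate 1 and 0.11 without treated replicate 2. Without vehicle replicate 3, the array on the side of the other time, it was 0.16. In RNA from whole flasks, fewer cells with IL6 transcript and less transcript per cell cannot be told apart.

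The gap widened after 10 h through both of its sides, in different proportions at the later times. In treated cells the difference in log2 level was 1.82 for 24 h minus 10 h, -1.30 for 48 h minus 24 h and 0.52 for 48 h minus 10 h. In vehicle cells these differences were -1.09, -0.66 and -1.75, the last being 3.35-fold lower. No other gene tested was lower by as much in vehicle cells at 48 h relative to 10 h. Each of the 3 vehicle arrays at a later time lay below each of those at the time before. Of the 2.91 by which the gap at 24 h exceeded that at 10 h, the vehicle difference made up 37.4%. Of the 2.26 by which the gap at 48 h exceeded that at 10 h, it made up 77.2%. The gap at 48 h minus that at 24 h was -0.64, the treated level being lower at 48 h by more than the vehicle level. Without vehicle replicate 3 at 10 h the vehicle difference between 48 h and 10 h was -1.76. The gap at 48 h and the vehicle course share the 48 h vehicle arrays, so these values are not independent of each other. With each array scaled to a common median in place of quantile normalization, the treated difference between 48 h and 10 h was 0.34 and the vehicle difference -1.94.

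In the cyclophosphamide experiment the IL6 levels of treated and vehicle arrays overlapped at every time, and the level varied widely between arrays of 1 group. At 10 h IL6 was 9.02, 10.02 and 8.51 in treated arrays, against 8.68, 9.87 and 8.56 in vehicle arrays. At 24 h it was 11.21, 9.26 and 8.51 in treated arrays, against 11.18, 9.27 and 8.08 in vehicle arrays. At 48 h it was 10.31 and 9.52 in treated arrays, against 9.99 and 9.59 in vehicle arrays. At 24 h replicate 1 stood far above the other arrays in both arms. The gaps were 0.15 (SE 0.67) at 10 h, 0.15 (SE 0.67) at 24 h and 0.13 (SE 0.83) at 48 h, with standard errors from the spread around the group means. Leaving out 1 array moved them between -0.28 and 0.56 at 10 h, between -0.62 and 0.99 at 24 h and between -0.27 and 0.52 at 48 h. Without the 4 arrays on the side of the other time the gaps were 0.24 at 10 h and 0.01 at 24 h, and the 48 h gap does not use those arrays.

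The spread in that experiment was shared by treated and vehicle arrays. The titles of the arrays end in letters that run through each experiment in 3 stretches, and arrays of 1 time in the same stretch were set side by side. Within these 8 pairs IL6 differed by -0.06 to 0.43, with the treated array higher in 5 of 8 and a mean difference of 0.14. The mean level of a pair, in contrast, ranged from 8.29 to 11.19. IL6 had a residual SD of 1.07 around the group means there, rank 2 of 10598 genes from the highest, and of 0.14 once each pair had its own mean. With a mean for each pair the standard error of the gap was 0.12 at 10 h and 24 h and 0.15 at 48 h, for the same gaps of 0.15, 0.15 and 0.13. Leaving out a whole pair gave gaps of 0.05 to 0.24 at 10 h and 0.01 to 0.23 at 24 h, and of -0.06 and 0.31 at 48 h, where 2 pairs were measured. In the 4-hydroperoxycyclophosphamide experiment the residual SD around the group means was 0.13, rank 3548. No source used here says what the stretches of letters stand for, and their part in these levels was not tested.

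**Figure D2:**
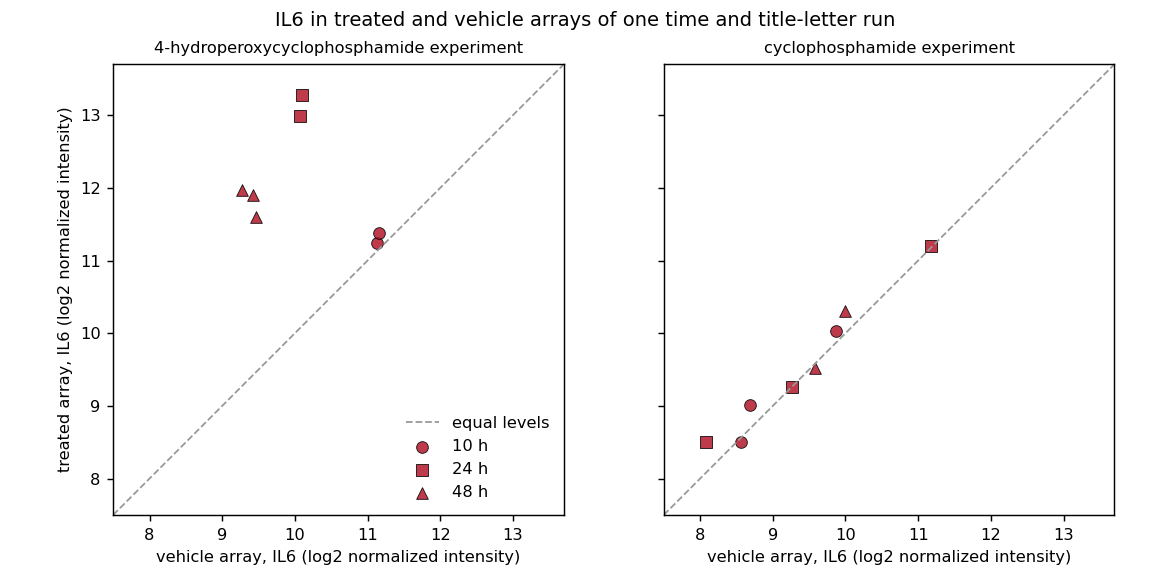
IL6 level (log2 normalized intensity) of the treated array (vertical axis) and the vehicle array (horizontal axis) of the same time and the same stretch of title letters, with a line of equal levels. The 8 pairs of the cyclophosphamide experiment lie within -0.06 to 0.43 of the line, and the 24 h and 48 h pairs of the 4-hydroperoxycyclophosphamide experiment lie 2.14 to 3.17 above it.

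The vehicle course of IL6 had opposite signs in the 2 experiments, in the cyclophosphamide experiment with an error as large as the difference. In the cyclophosphamide experiment treated cells had 0.73 more IL6 at 48 h than at 10 h, with a range of 0.34 to 1.15 when 1 array was left out. Vehicle cells had 0.75 more (SE 0.75), with a range of 0.51 to 1.17. The 48 h arrays overlapped the 10 h arrays in both arms, and without the 4 arrays on the side of the other time the differences were 0.39 in treated cells and 0.51 in vehicle cells. In the 4-hydroperoxycyclophosphamide experiment the vehicle difference was -1.75 (SE 0.10), with a range of -1.78 to -1.69 when 1 array was left out. The difference between the 2 vehicle courses was not tested.

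Ordered by mean, the 12 groups ran from treated cells at 24 h with 4-hydroperoxycyclophosphamide (13.13) through the same treatment at 48 h (11.83) and at 10 h (11.31) to its vehicle cells at 10 h (11.13) and 24 h (10.04), and each of the first 4 stood clear of the next. Below these, the vehicle cells of that experiment at 24 h overlapped the cyclophosphamide group that followed, and every later group overlapped its neighbour. The lowest means were those of the cyclophosphamide experiment at 10 h, 9.18 ± 0.77 (SD, n = 3) in treated cells and 9.04 ± 0.73 (SD, n = 3) in vehicle cells. All 32 arrays were normalized together, and no level was tested between the experiments.

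Likeness to IL6 was measured by Pearson correlation over the 16 arrays of the 4-hydroperoxycyclophosphamide experiment, among 10597 genes. Arrays of a group share their treatment and time, and the genes were chosen for this value. The 10 most alike were IL24 (0.979), the tight junction gene CLDN1 (0.965), PTGS2 (0.964), DUSP1 (0.962), RND3 (0.957), PPP1R15A (0.956), GADD45A (0.925), BMP2 (0.924), PRDM1 (0.921) and ATF3 (0.920), and the median of all genes was -0.01. IL24 encodes a cytokine of the interleukin 10 family, PTGS2 the inducible cyclooxygenase, DUSP1 a phosphatase of MAP kinases, and PPP1R15A, GADD45A and ATF3 are known stress-response genes. Over the 16 arrays of the cyclophosphamide experiment, which did not enter the choice, their correlations ranged from 0.220 for GADD45A to 0.898 for IL24, with a median of 0.726, against 0.007 for all genes. The IL6 residual SD there was 1.07 around group means and 0.14 with a mean for each pair of 1 time and stretch. Those 16 arrays are thus not independent, and whether these correlations reflect treatment or time was not tested. The 5 genes with the highest value of the lower of both correlations were IL24, DUSP1 (0.887), TNFAIP3 (0.867), CXCL8 (0.866) and CDKN1A (0.853). The 5 most opposite in the 4-hydroperoxycyclophosphamide experiment were RTN4IP1 (-0.905), DYNC2I1 (-0.904), SMYD3 (-0.896), BACC1 (-0.893) and ZNF25 (-0.876). With deviations from the group means in place of levels, IL24 had 0.555 and DUSP1 0.753 there, and 0.920 and 0.959 in the cyclophosphamide experiment, while PTGS2 had -0.146 and 0.760.

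IL24 followed the IL6 pattern most closely by this measure. At 10 h IL24 was 8.30 and 8.57 in treated arrays, against 8.18, 8.58 and 8.24 in vehicle arrays. At 24 h it was 9.59 and 9.56 in treated arrays, against 7.78, 7.84 and 7.76 in vehicle arrays. At 48 h it was 9.05, 8.43 and 8.54 in treated arrays, against 7.17, 7.17 and 7.07 in vehicle arrays. Treated and vehicle arrays were apart at 24 h and 48 h and overlapped at 10 h. CXCL8, interleukin 8, differed from IL6 in having no peak as tall in treated cells. Its treated means were 13.67 at 10 h, 13.74 at 24 h and 13.27 at 48 h, and its vehicle means 13.46, 12.56 and 12.09. ATF3 showed mostly the treated side, with treated means of 9.18, 10.66 and 10.26 and vehicle means of 9.27, 8.83 and 8.75. Of the 10 genes most alike, 8 had a promoter sequence to search. The C/EBP motif was in the promoters of PPP1R15A and PTGS2, the CRE core in those of DUSP1 and PPP1R15A, and the NF-kB and AP-1 motifs in 0 of them.

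**Figure D3:**
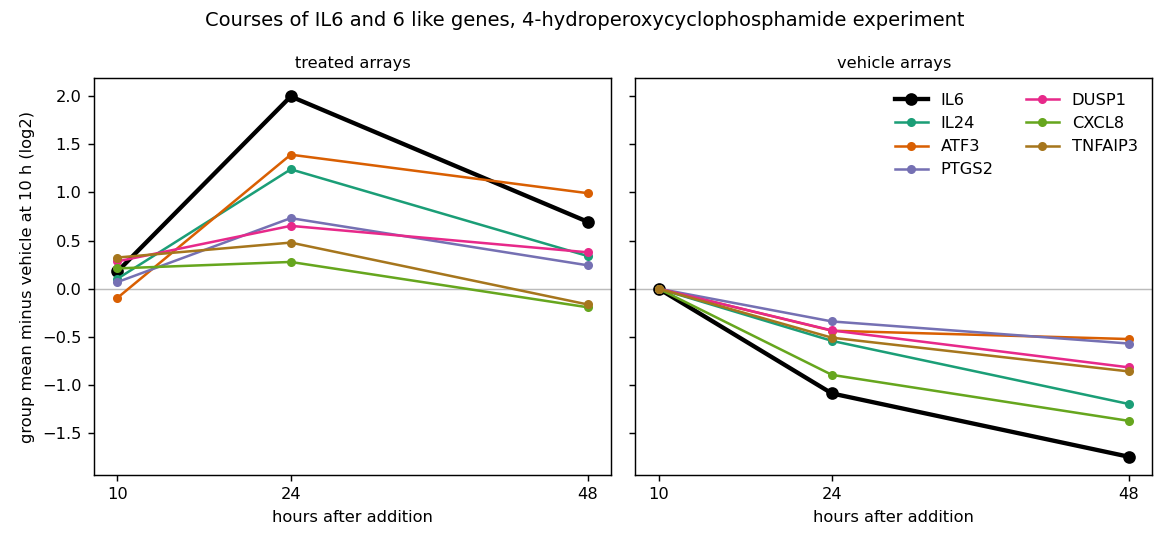
Group means of IL6 and 6 genes like it in the 4-hydroperoxycyclophosphamide experiment, as the log2 difference from the vehicle mean at 10 h, against hours after addition, for treated arrays (left) and vehicle arrays (right). At 48 h the vehicle lines lie between -0.52 for ATF3 and -1.75 for IL6, and the treated lines of CXCL8 and TNFAIP3 are also below 0.

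Calls of other genes rest on limma with Benjamini-Hochberg adjustment at 5% over the 10598 genes. For 4-hydroperoxycyclophosphamide, 0.528% of genes were called higher and 1.09% lower at 10 h, 1.11% and 0.793% at 24 h, and 4.99% and 4.83% at 48 h. In vehicle cells of that experiment 5.96% were called higher and 5.6% lower at 48 h relative to 10 h. For cyclophosphamide, and for its vehicle cells over time, 0% were called in every comparison, and 525, 112, 157 and 240 genes had an unadjusted p under 0.05 at 10 h, 24 h, 48 h and over time. The count at 10 h leaned on single arrays, with 171 genes in all, 57 without vehicle replicate 3, 94 without vehicle replicate 2, 42 without treated replicate 1 and 1062 without treated replicate 2. The 202 genes called at 24 h became 45 without treated replicate 1, 87 without treated replicate 2, and 112 and 129 without vehicle replicate 1 and 3. Over time in vehicle cells the 1226 genes became 700 without replicate 1 at 48 h, 753 without replicate 2 at 10 h and 979 without replicate 3 at 10 h. One fit to all 32 arrays gave 24, 16 and 172 genes at 10, 24 and 48 h, and 2 genes for cyclophosphamide at 10 h. With median scaling 60% of the 70 calls at 10 h were higher in treated cells, against 32.7% of the 171, and 20.3% of the 1033 calls over time in vehicle cells were higher, against 51.6% of the 1226. It also moved the share called higher to 77.2% at 24 h and 68.5% at 48 h, against 58.4% and 50.8%. The lists below were set around IL6 and describe only which of their measured genes were called. Below, rose and fell under treatment mean higher and lower than vehicle at the same time. They do not mean a change of the treated level from 10 h. For vehicle cells over time they mean 48 h relative to 10 h. Genes named above for their likeness to IL6 were chosen on the same arrays, so their calls are not independent of that choice.

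The receptor side of the pathway showed no call under 4-hydroperoxycyclophosphamide. At 10 h 0.528% of all genes were called higher and 1.09% lower, at 24 h 1.11% and 0.793%, and at 48 h 4.99% and 4.83%. A count of 0 among the 16 tested is not far from these shares. Of 21 genes of the IL6 receptor and signal chain 16 were tested, and limma called 0 at 10, 24 or 48 h (unadjusted p fell under 0.05 for 3, 1 and 1 of them), with medians of -0.01, -0.01 and 0.00 against medians of 0.00, 0.00 and -0.01 over all genes. IL6R was at 0.00, 0.02 and 0.10 at the 3 times, and IL6ST at 0.23, 0.17 and 0.00. The kinase JAK1 was at -0.12, -0.03 and -0.02, JAK2 at -0.04, 0.02 and -0.17, and the feedback inhibitor SOCS3 at 0.12, 0.24 and 0.15. STAT3 itself was too dim to be tested, at percentile 33.5 of mean level. Over time in vehicle cells PTPN2, a phosphatase that acts on JAK and STAT proteins, fell by 0.30 (SE 0.07, adjusted p = 0.00927), the 1 call of the list, which one fit to all 32 arrays did not make (adjusted p = 0.265). There 5.6% of all genes were called lower, and 1 of 16 is not far from that share. At 10 h the list had 2 calls in each direction without treated replicate 2.

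Of 14 cytokines and receptors that share gp130, 4 were tested, and IL11 was the one called under treatment. Among all genes 1.11% were called higher at 24 h, 4.99% higher at 48 h and 5.6% lower over time in vehicle cells. IL11, interleukin 11, was 8.17 and 7.73 in treated arrays at 24 h, against 7.40, 7.24 and 7.30 in vehicle arrays. It rose by 0.64 at 24 h (SE 0.13, adjusted p = 0.00662) and by 0.38 at 48 h (SE 0.11, adjusted p = 0.0305). Without treated replicate 1 the 24 h difference was 0.42 (adjusted p = 0.281). At 48 h the call was lost without treated replicate 1 (0.33, adjusted p = 0.124), treated replicate 3 (0.41, adjusted p = 0.0582), vehicle replicate 2 (0.38, adjusted p = 0.0867) or vehicle replicate 3 (0.34, adjusted p = 0.119). Over time in vehicle cells IL11 fell by 1.03 (SE 0.11, adjusted p = 1.66e-06) and IL27RA, a receptor chain that pairs with gp130, fell by 0.59 (SE 0.12, adjusted p = 0.00256). LIF was at 0.05, 0.23 and -0.10 under treatment at 10, 24 and 48 h, and the oncostatin M receptor OSMR at 0.04, 0.07 and 0.18. At 10 h 1 member was called higher without vehicle replicate 2. One fit to all 32 arrays made none of the calls of this list.

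Of 20 known STAT3 target genes 18 were tested, and 3 rose at 24 h and 3 at 48 h. The shares of all genes called higher were 1.11% at 24 h, 4.99% at 48 h and 5.96% over time in vehicle cells. The share called lower at 10 h was 1.09%. The medians of the list were 0.05 and 0.15, and those of all genes 0.00 and -0.01. CEBPB, which also acts on the IL6 promoter, rose by 0.61 at 24 h (SE 0.08, adjusted p = 7.22e-05) and by 0.53 at 48 h (SE 0.07, adjusted p = 3.73e-05). MYC rose by 0.56 (SE 0.09, adjusted p = 0.00101) and the kinase PIM1 by 0.69 (SE 0.13, adjusted p = 0.00476) at 24 h. MYC was at 0.49 (adjusted p = 0.0685) without treated replicate 1 and PIM1 at 0.63 (adjusted p = 0.10) without treated replicate 2. At 48 h the interferon-regulated factor IRF1 rose by 0.40 (SE 0.11, adjusted p = 0.0260) and the protease inhibitor TIMP1 by 0.36 (SE 0.10, adjusted p = 0.0281). IRF1 lay between 0.36 and 0.38 and was not called without treated replicate 1 or 3 or vehicle replicate 1 or 3. TIMP1 lay between 0.28 and 0.34 and was not called without treated replicate 1 or 2 or vehicle replicate 2 or 3, so that 1 of the 3 calls at 48 h was left without treated replicate 1 or vehicle replicate 3. BIRC5, survivin, fell by 0.56 at 10 h (SE 0.14, adjusted p = 0.0464). It was at -0.45 (adjusted p = 0.214) without vehicle replicate 3, -0.25 (adjusted p = 0.853) without treated replicate 1 and -0.58 (adjusted p = 0.0713) without vehicle replicate 1. In vehicle cells over time HIF1A rose by 0.40 (SE 0.09, adjusted p = 0.00369) and PIM1 by 0.42 (SE 0.12, adjusted p = 0.0223). PIM1 was not called there, at 0.36 to 0.44, without replicate 1 or 2 of either time. Without treated replicate 2, 2 members were called higher and 3 lower at 10 h. One fit to all 32 arrays made none of the calls of this list.

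Some members of the list of signals known to induce IL6 rose under treatment. Of 29 genes of interleukin 1, TNF and Toll-like receptor signalling 20 were tested, and 5 rose at 24 h and 7 at 48 h, with 0 lower, and 0 in either direction at 10 h. Among all genes 1.11% were called higher and 0.793% lower at 24 h, and 4.99% and 4.83% at 48 h. The medians were 0.18 and 0.14, against 0.00 and -0.01 over all genes. IL1A, interleukin 1 alpha, was 7.78 and 7.66 in treated arrays at 24 h, against 6.41, 6.68 and 6.65 in vehicle arrays. It rose by 1.14 at 24 h (SE 0.11, adjusted p = 1.10e-06) and by 0.88 at 48 h (SE 0.10, adjusted p = 3.51e-06), and its groups did not overlap at those times. TNFAIP3, an inhibitor of NF-kB signalling, rose by 0.99 at 24 h (SE 0.11, adjusted p = 3.61e-06) and by 0.70 at 48 h (SE 0.10, adjusted p = 3.86e-05). Its treated means were 9.01, 9.16 and 8.52 at 10, 24 and 48 h. The treated mean at 48 h thus lay below the vehicle mean at 10 h, 8.69. IRAK2, a kinase of the interleukin 1 receptor, rose by 0.56 at 24 h (adjusted p = 0.00197) and by 0.76 at 48 h (adjusted p = 3.51e-06). IL1RN, the interleukin 1 receptor antagonist, rose by 0.66 at 48 h (adjusted p = 1.33e-05). The other signalling proteins downstream of the interleukin 1 receptor that were tested, named here after their values were seen, had no call at 24 h or 48 h except for the adaptor MYD88 (0.25 and 0.30, adjusted p = 0.194 and 0.0171). IRAK1 was at 0.15 and -0.02, TRAF6 at -0.13 and 0.02, MAP3K7 at 0.05 and -0.10 and TAB1 at 0.11 and -0.12. IL1B rose by 0.68 (adjusted p = 0.0419) and the adaptor TICAM1 by 0.42 (adjusted p = 0.0453) at 24 h, and by 0.70 (adjusted p = 0.00454) and 0.54 (adjusted p = 0.000738) at 48 h. At 24 h IRAK2 was at 0.43 (adjusted p = 0.142) without treated replicate 1. IL1B lay between 0.49 and 0.88 and was not called without treated replicate 1 or 2 or vehicle replicate 1 or 2, and TICAM1, at 0.39 to 0.47, was not called without any 1 of the 5 arrays. With the stretches of title letters as a block TICAM1 was at 0.38 (adjusted p = 0.0582). The count at 24 h was therefore 2 without treated replicate 1, and 3 without treated replicate 2 or vehicle replicate 1 or 2. Without treated replicate 2 at 10 h, 2 members were called lower. The receptor IL1R1 and TNF were in the dim part of the array, at percentiles 4.39 and 5.49, and were not tested.

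Over time in vehicle cells, 4 of the 20 tested genes of that list fell and 1 rose. Of all genes, 5.6% were called lower there and 5.96% higher, and 1 of 20 is not far from the latter share. TNFAIP3 fell by 0.86 (SE 0.10, adjusted p = 2.56e-06), the NF-kB inhibitor NFKBIE fell by 0.65 (adjusted p = 3.75e-05), its relative NFKBIA fell by 0.42 (adjusted p = 0.00129), and IRAK2 fell by 0.45 (adjusted p = 0.00137). The TNF receptor TNFRSF1A rose by 0.42 (adjusted p = 0.0106). Without vehicle replicate 1 at 48 h, TNFRSF1A was at 0.37 (adjusted p = 0.0632). Without replicate 3 at 48 h, 2 members were called higher. IL1A and IL1B were at -0.23 (adjusted p = 0.158) and -0.46 (adjusted p = 0.0564).

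Of 25 transcription factors known to act on IL6, 22 were tested, and 3 rose at 24 h. At 48 h 5 rose and 1 fell, and at 10 h 0 were called. The shares of all genes were 1.11% higher at 24 h, and 4.99% higher and 4.83% lower at 48 h. A count of 1 lower among 22 is not far from the last of these. The medians were 0.12 at 24 h and 0.09 at 48 h, against 0.00 and -0.01 over all genes. ATF3 rose by 1.83 at 24 h (SE 0.11, adjusted p = 3.02e-10) and by 1.51 at 48 h (SE 0.10, adjusted p = 9.94e-10). At 24 h it was 10.73 and 10.59 in treated arrays, against 8.98, 8.65 and 8.87 in vehicle arrays, with no overlap. RELB, an NF-kB subunit, rose by 0.42 at 24 h (SE 0.08, adjusted p = 0.00730) and by 0.43 at 48 h (SE 0.08, adjusted p = 0.000504), and the 24 h difference was 0.38 (adjusted p = 0.165) without treated replicate 1. CEBPB rose as given above. NFKB2 rose by 0.33 at 48 h (SE 0.09, adjusted p = 0.0203), and IRF1 was the remaining gene that rose. NFKB2 was at 0.26 (adjusted p = 0.119) without vehicle replicate 1 and 0.25 (adjusted p = 0.118) without treated replicate 2. SP1 fell by 0.41 at 48 h (SE 0.11, adjusted p = 0.0178) and was not called, at -0.41 to -0.32, without vehicle replicate 1 or 2 or treated replicate 3. NFKB1 was at 0.11 and -0.01, RELA at 0.25 and 0.13, NFKBIZ at 0.34 and 0.28, CEBPD at 0.13 and 0.20, FOSL1 at -0.08 and -0.25 and JUN at -0.07 and -0.08 at 24 h and 48 h. At 10 h 5 members were called higher and 1 lower without treated replicate 2, and 1 higher without vehicle replicate 2.

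In vehicle cells over time 5 of the 22 members tested fell, 3 of them NF-kB genes, and 1 rose, with a median of -0.12 against 0.00 over all genes. The shares of all genes there were 5.6% lower and 5.96% higher, and 1 of 22 is not far from the latter. RELB fell by 0.65 (SE 0.08, adjusted p = 3.45e-06), NFKB1 fell by 0.34 (adjusted p = 0.0105) and NFKB2 fell by 0.34 (adjusted p = 0.0150). ATF3 fell by 0.52 (adjusted p = 0.00131) and EGR1, an immediate early factor, fell by 0.55 (adjusted p = 0.00480). JUND rose by 0.39 (adjusted p = 0.0169). Without replicate 1 at 48 h 3 of the 5 calls were left, with NFKB1 at -0.29 (adjusted p = 0.0693) and NFKB2 at -0.27 (adjusted p = 0.101). Without replicate 3 at 10 h, the array on the side of the other time, NFKB2 was at -0.28 (adjusted p = 0.0764) and JUND at 0.34 (adjusted p = 0.0694). JUND was also not called without replicate 1 (0.31, adjusted p = 0.110) or replicate 2 (0.37, adjusted p = 0.0562) at 48 h. RELA was at 0.04 and CEBPB at -0.13, without a call.

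The genes that act on IL6 mRNA showed few calls. Over all genes 1.09% were called lower at 10 h and 4.99% higher at 48 h. Of 20 genes 16 were tested, and 1 was called lower at 10 h, 0 at 24 h, with 1 at an unadjusted p under 0.05, and 1 higher at 48 h. The medians at these times were 0.00, 0.01 and 0.01, against 0.00, 0.00 and -0.01 over all genes. ZFP36 rose by 0.40 at 48 h (SE 0.10, adjusted p = 0.0140). It was at 0.38 (adjusted p = 0.0546) without treated replicate 1, 0.36 (adjusted p = 0.0675) without treated replicate 3 and 0.29 (adjusted p = 0.109) without vehicle replicate 3. Without treated replicate 2, 2 members were called higher at 48 h, and without vehicle replicate 1, 1 was called lower. ARID5A, which stabilizes IL6 mRNA, fell by 0.42 at 10 h (SE 0.10, adjusted p = 0.0381). It was at -0.43 (adjusted p = 0.106) without vehicle replicate 3, -0.33 (adjusted p = 0.139) without vehicle replicate 2, -0.45 (adjusted p = 0.280) without treated replicate 1 and -0.39 (adjusted p = 0.0577) without treated replicate 2, when 1 other member was called higher and 1 other lower. With the stretches of title letters as a block it was at -0.39 (adjusted p = 0.0509). ZC3H12A was at 0.12, 0.12 and 0.15 and the stabilizing protein ELAVL1 at 0.09, -0.12 and -0.21 at 10, 24 and 48 h. In vehicle cells over time limma called 0, with 3 at an unadjusted p under 0.05, and 1 was called lower without replicate 1 at 48 h or without replicate 3 at 10 h. One fit to all 32 arrays made none of the calls of this list.

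Secreted inflammatory and senescence-associated factors held the largest number of calls among the lists. Of 35 genes 24 were tested. At 10 h 0 were called and the median was -0.06, at 24 h 10 rose and the median was 0.23, and at 48 h 16 rose and the median was 0.65, against 0.00, 0.00 and -0.01 over all genes. Among all genes 1.11% were called higher at 24 h and 4.99% at 48 h. IL24 rose by 1.78 at 24 h (SE 0.14, adjusted p = 2.20e-08) and by 1.54 at 48 h (SE 0.12, adjusted p = 1.49e-08). GDF15, a stress-induced cytokine of the TGF-beta family, rose by 1.59 (adjusted p = 8.02e-07) and 1.90 (adjusted p = 4.05e-09). CXCL8 rose by 1.17 (adjusted p = 1.31e-05) and 1.18 (adjusted p = 1.01e-06), and CCL20, a chemokine for lymphocytes and dendritic cells, by 0.81 (adjusted p = 1.56e-05) and 1.11 (adjusted p = 1.47e-08). The treated mean of CXCL8 at 48 h, 13.27, lay below its vehicle mean at 10 h, 13.46. PTGS2 rose by 1.07 at 24 h (adjusted p = 1.10e-06), and IL1A as given above. LCN2, lipocalin 2, rose by 0.85 at 48 h (adjusted p = 9.75e-08) and was at 0.01 at 24 h. Without treated replicate 2 at 10 h, 2 members were called lower.

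Of the same 24 genes, 11 fell and 3 rose over time in vehicle cells, with a median of -0.31 against 0.00 over all genes. The shares of all genes called there were 5.6% lower and 5.96% higher. The 6 with the smallest p were the chemokine genes CXCL8 at -1.37 (SE 0.13, adjusted p = 1.45e-07), CCL20 at -1.28 (SE 0.09, adjusted p = 2.74e-09), CXCL2 at -1.24 (SE 0.12, adjusted p = 3.42e-07) and CXCL6 at -1.12 (SE 0.10, adjusted p = 6.35e-08), with IL24 at -1.20 (SE 0.12, adjusted p = 6.88e-07). HBEGF, an epidermal growth factor receptor ligand, fell by 0.84 (SE 0.10, adjusted p = 5.49e-06). CXCL2 was 7.37, 7.39 and 7.22 in vehicle arrays at 10 h, 6.44, 6.63 and 7.17 at 24 h and 6.11, 6.10 and 6.07 at 48 h. Its 24 h arrays were the more scattered, and none reached the lowest 10 h array. The 3 that rose were GDF15 (0.48, adjusted p = 0.0255), IGFBP6 (0.44, adjusted p = 0.0100) and TIMP2 (0.29, adjusted p = 0.0241), named after their values were seen. Without replicate 1 at 48 h 0 of the list were called higher, and without replicate 1 or 2 at 10 h 1 was. These vehicle values and the 48 h gaps share the 48 h vehicle arrays.

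In the list of cyclic AMP and prostaglandin signalling, 8 of 15 genes were tested, and 1 rose at 24 h and 4 at 48 h. Among all genes 1.11% were called higher at 24 h, 4.99% higher at 48 h and 5.6% lower over time in vehicle cells. PTGS2 was 7.63 and 7.58 in treated arrays at 24 h, against 6.64, 6.52 and 6.42 in vehicle arrays, and it rose by 0.81 at 48 h (SE 0.10, adjusted p = 4.75e-06). At 48 h PTGES, a prostaglandin E synthase, rose by 0.92 (SE 0.10, adjusted p = 9.93e-07), ADM, adrenomedullin, by 0.78 (SE 0.10, adjusted p = 2.26e-05) and PTGER4, a prostaglandin E2 receptor, by 0.32 (SE 0.09, adjusted p = 0.0197). PTGER4 was at 0.26 (adjusted p = 0.115) without vehicle replicate 1 and 0.25 (adjusted p = 0.113) without treated replicate 3. In vehicle cells over time ADM fell by 0.63 (adjusted p = 0.000236), PTGS2 fell by 0.57 (adjusted p = 0.000317) and PTGER4 fell by 0.40 (adjusted p = 0.00325). The medians were 0.15 at 24 h, 0.21 at 48 h and -0.17 over time in vehicle cells, against 0.00, -0.01 and 0.00 over all genes.

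**Figure D4:**
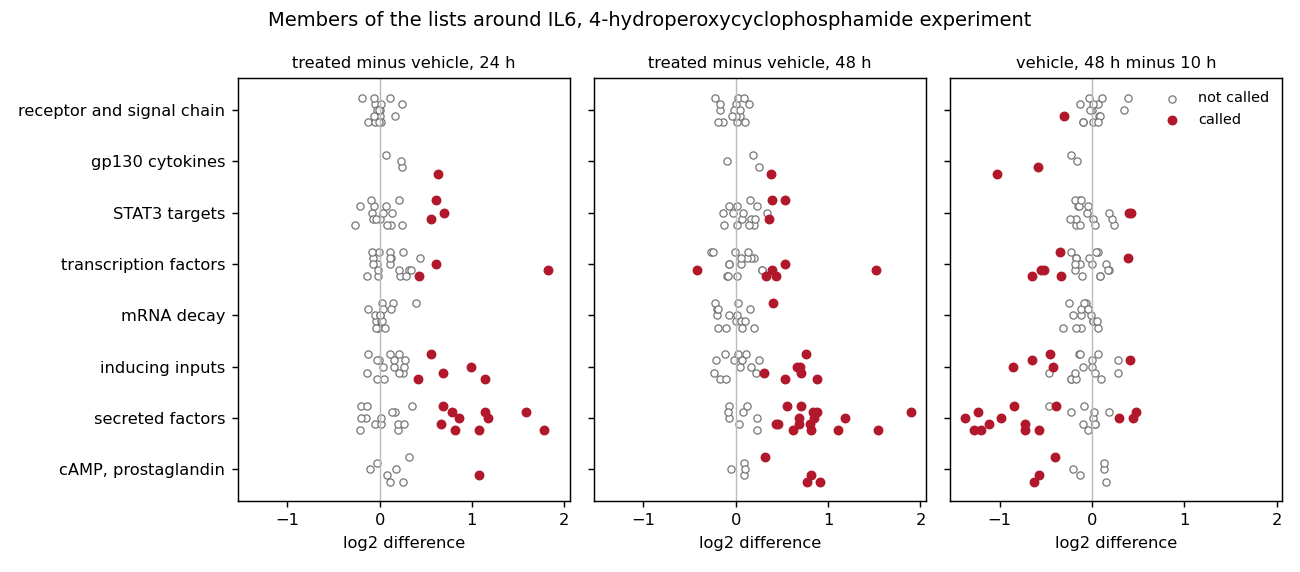
Log2 differences of the tested members of 8 lists around IL6 in the 4-hydroperoxycyclophosphamide experiment, for treated minus vehicle at 24 h and at 48 h and for vehicle at 48 h minus 10 h, with genes called by limma in red. In the secreted factor list 10 members are called higher at 24 h and 16 at 48 h, and 11 lower over time in vehicle cells, while 0 of 16 members of the receptor and signal chain are called at 24 h or 48 h. Over all genes 1.11% are called higher and 0.793% lower at 24 h, 4.99% and 4.83% at 48 h, and 5.6% lower over time in vehicle cells.

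One fit to all 32 arrays, in which both experiments share an estimate of spread, left 1, 1 and 3 members called higher at 24 h in the lists of transcription factors, of inputs and of secreted factors. At 48 h it left 1, 3 and 7, and in vehicle cells over time 1, 1 and 3 called lower. The genes still called at 24 h were ATF3 (adjusted p = 9.29e-06), IL1A (adjusted p = 0.000279), which is in 2 of these lists, IL24 (adjusted p = 0.00117) and PTGS2 (adjusted p = 0.00801). With median scaling, 0 members of the STAT3 target, transcription factor and input lists, and 1 of the secreted factors, were called higher over time in vehicle cells, against 2, 1, 1 and 3. The fit to all 32 arrays, with quantile normalization, called 0 members of the receptor chain, gp130, STAT3 target and mRNA decay lists in any of these comparisons or at 10 h. In that fit CEBPB had an adjusted p of 0.235 at 24 h and 0.0539 at 48 h, and MYC 0.235 and PIM1 0.869 at 24 h. IL11 had 0.999 at 24 h, 0.673 at 48 h and 0.0708 over time in vehicle cells, and ZFP36 0.292 at 48 h. In the cyclic AMP and prostaglandin list the fit to all 32 arrays left 1 and 3 called higher at 24 h and 48 h and 0 lower over time in vehicle cells. In the cyclophosphamide experiment limma called 0 members of any of these lists at any time, and 0 in its vehicle cells over time, with at most 4 of a list at an unadjusted p under 0.05.

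Neighbouring genes on chromosome 7 showed no call. The nearest with a probe were TOMM7, a mitochondrial import protein gene 81.0 kb away, and HYCC1, 164 kb away, on 1 side, and CDCA7L, 781 kb away, on the other. TOMM7 was at 0.06 and 0.12 and HYCC1 at 0.23 and 0.22 at 24 h and 48 h under 4-hydroperoxycyclophosphamide. SP4, KLHL7 and CDCA7L were at -0.08, -0.04 and -0.09 at 24 h and at -0.33, 0.05 and -0.04 at 48 h, and DNAH11 was too dim to be tested. HYCC1 had a correlation with IL6 of 0.758 over the 16 arrays of that experiment and of 0.693 over those of the cyclophosphamide experiment. The other neighbours tested were lower in both, TOMM7 at 0.236 and -0.522, and KLHL7 at -0.181 and -0.048. CDCA7L was at -0.297 and 0.094, and SP4 at -0.302 and -0.024.

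Markers of other cell types were looked for beside these results. Of 7 macrophage and leukocyte markers 3 passed the filter on dim probes, and of 7 fibroblast markers 1 did. CD68, a lysosomal protein of macrophages that other cells also express, rose by 0.40 at 48 h (SE 0.08, adjusted p = 0.00154). The androgen-response marker TMPRSS2 was also called higher at 48 h under 4-hydroperoxycyclophosphamide, by 0.34, and so was the epithelial marker CD24. PTPRC, the pan-leukocyte antigen, was at -0.14 and -0.04 at 24 h and 48 h, with its probe at percentile 47.4 of mean level, and CD14 was in the dim part of the array, at percentile 11.95. The summed intensity of the 7 leukocyte markers was 1137.5 to 1145.9 in treated arrays at 10 h, against 1064.5 to 1130.8 in vehicle arrays, 1137.9 to 1145.3 at 24 h, against 1093.7 to 1176.2, and 1287.5 to 1388.2 at 48 h, against 1120.4 to 1180.8. It was higher in treated arrays without overlap at 10 h and 48 h, and overlapped at 24 h. A sum of linear intensities follows its brightest members, and the list had a median percentile of 32.6 and a highest of 85.8. In the cyclophosphamide experiment at 10 h the sum was 1428.1 to 2181.3 in treated arrays, against 1440.8 to 1774.6 in vehicle arrays. Such a shift was not particular to leukocyte markers. Under 4-hydroperoxycyclophosphamide the fibroblast sum at 10 h was 657.9 to 692.37, against 616.9 to 644.23 in vehicle arrays. The androgen-response sum at 48 h was 381.22 to 416.88, against 327.33 to 364.02. At the other times these sums overlapped, and the epithelial sum overlapped at every time. The part of these markers in the IL6 levels was not tested.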

How the data were processed

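The members and gene lists were chosen with earlier results of these data known. Probe intensity, on a linear scale, is what the authors deposited as their signal table, and the submitters' processing notes name BeadStudio and R 2.12.0. A further table by the authors gives these arrays as log2 values (Spearman correlation with the intensities at least 0.999), normalized by a method that no source used here states. Its medians were 7.43 to 7.44 in the 4-hydroperoxycyclophosphamide experiment and 7.32 to 7.34 in the cyclophosphamide experiment. Identical values were found in 0 pairs of arrays.

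With limma 3.58.1 (R 4.3.3), normexp with an offset of 50 corrected the background, quantile normalization ran over all 32 arrays, and log2 was taken. The platform annotation pairs 18332 probes with 1 gene symbol, 0 with several, and leaves 2257 unnamed. A gene table held the Entrez identifiers of 18315 probes, with 0 symbols differing. Probes in the upper 60% by mean level entered the tests, 1 for each gene, the brightest. Each experiment was fitted with a mean for each of its groups (lmFit, eBayes), adjusted by Benjamini-Hochberg at 5%. On simulated arrays with each experiment's noise, genes changed by 0.58 log2 were recovered at 98% for 4-hydroperoxycyclophosphamide at 24 h and 36% for cyclophosphamide at 24 h, over 10598 genes. For cyclophosphamide at 48 h it was 19%. False calls at 24 h numbered 12 and 7. The simulated noise was independent between arrays, so these values leave out that arrays of a stretch deviated together, as described below. Precision is limited by having 2 or 3 arrays a group.

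Arrays of 1 time and the same stretch of title letters deviated together from their group means in 8 of 8 pairs of the cyclophosphamide experiment (correlation over genes 0.158 to 0.685) and less evenly in the other (-0.04 to 0.248, 6 of 7 over 0.1). Deviations within a group cancel, so pairs of 1 time are not independent. The 48 h pairs of the cyclophosphamide experiment, with 2 arrays a group, must give the same value (0.432). Named genes are IL6, up to 6 called members per list and comparison by smallest p, 26 genes of its pathway given whatever their result, the genes most and least like IL6, and 3 neighbours on each side. Alternatives were other background corrections, scalings, filters, fits, priors and blocks, the authors' log2 values, and leaving out each array. Promoter sequences are from RefSeq (GRCh38.p14).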

Additional observations from a re-analysis of the deposited data

How the results depend on the processing

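Apart from leaving out arrays, 6 alternatives gave an IL6 gap for 4-hydroperoxycyclophosphamide of 0.16 to 0.22 at 10 h, 3.03 to 3.15 at 24 h and 2.36 to 2.50 at 48 h. For cyclophosphamide 7 gave 0.12 to 0.24, 0.01 to 0.17 and 0.09 to 0.13. With the replicate block, as differences within a stretch of title letters, the 4-hydroperoxycyclophosphamide gaps were 0.16, 3.04 and 2.44. Leaving out 1 array gave gaps of 0.11 to 0.25, 2.94 to 3.23 and 2.37 to 2.55 for that compound, and differences between 48 h and 10 h of 0.44 to 0.63 in treated and -1.78 to -1.69 in vehicle cells. For cyclophosphamide it gave gaps of -0.28 to 0.56, -0.62 to 0.99 and -0.27 to 0.52, and differences of 0.34 to 1.15 in treated and 0.51 to 1.17 in vehicle cells. With median scaling the treated difference was 0.34 and the vehicle difference -1.94 with 4-hydroperoxycyclophosphamide, and the counts of genes called were 70, 79 and 466 at 10, 24 and 48 h, against 171, 202 and 1041. An offset of 16 gave 86 genes at 10 h. One fit to all 32 arrays gave 24, 16 and 172, 56 over time in vehicle cells, and 2 for cyclophosphamide at 10 h. No filter on dim probes gave 66 genes at 10 h, 112 at 24 h and 809 over time in vehicle cells, against 1226. Leaving out 1 array gave 42 to 1062, 45 to 141, 713 to 788 and 700 to 979 genes in these 4 comparisons, and 0 in each comparison for cyclophosphamide. The replicate block gave 155, 263, 1294 and 1535 genes, and 0 for cyclophosphamide also with time and stretch pairs. Of the named genes, 4550 of 4785 values kept their side of the threshold, 218 lost a call, 17 gained one and 0 reversed, and 532 of 646 list counts stayed within 1.5 times. The 4785 values include genes without a call in the fits reported above, which cannot lose one. The share lost among calls is therefore larger than 218 of 4785. The shared fit took 68 calls and median scaling 20. The causes were not tested. Dim probes have no detection limit here. Leaving out a whole pair gave cyclophosphamide gaps of 0.05 to 0.24, 0.01 to 0.23 and -0.06 to 0.31. This, the fit with time and stretch pairs as a block, the likeness from deviations, and the gene and list counts without the arrays on the side of the other time were chosen after seeing the data.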
